A study of Mus musculus with 13 samples.

Results

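The genes described here belong to the growth hormone and insulin-like growth factor (IGF) axis of the liver, together with a pair of major urinary protein genes. They were Ghr, Socs2, Igf1, Igfals, Igfbp1, Igfbp2, Igfbp3, Mup3 and Mup20, listed by gene symbol, and they made up 9 of the 27141 genes in the count table. The genes were selected on their levels and fold changes in these same libraries, with no stated threshold. Levels and fold changes of the 9 genes are therefore given as a description, with no p-value. Where a gene of the 9 is said to be called, it passed the thresholds of the fit across all genes, which is no independent test of a gene chosen on the same libraries. P-values are given for other genes of the axis.

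The RNA came from damaged hepatocytes (dHeps), isolated from mice whose livers were injured over a long period with carbon tetrachloride (CCl4). The labels give the mice as WT, without age or sex. All groups were kept for 16 days in serum-free Hepatocyte Maintenance Medium. The control group received the solvent DMSO, and the 5C group received 5 compounds, namely GSK429286A (G), which inhibits ROCK, CID755673 (C), which inhibits protein kinase D, ETC-1002 (E), which activates AMPK, forskolin (F), which raises cyclic AMP through adenylate cyclase, and Salidroside (S). The groups 5C-G, 5C-C, 5C-E, 5C-F and 5C-S each lacked the compound named by the letter. There were 2 libraries per group, called A and B here, and 1 library of 5C-S. The letters pair nothing across groups, and the labels do not say whether the libraries of a group came from separate animals or cultures. The study's methods speak of biological replicates throughout, without saying what was separate for these libraries, so SEs and p-values measure the spread between them. The comparison of 5C with DMSO asks how the cocktail alters the axis, and each group that lacks a compound asks what that compound adds within the cocktail.

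In the liver, growth hormone binds its receptor, and the kinase JAK2 and the transcription factor STAT5B then switch on target genes that include Igf1, Igfals and Socs2. IGF1 travels in the blood bound to IGFBP3 and to the acid-labile subunit encoded by Igfals. IGFBP1 and IGFBP2 form smaller complexes, and transcription of Igfbp1 is raised by fasting and cyclic AMP and lowered by insulin. Major urinary proteins are small carrier proteins made by mouse hepatocytes and excreted in urine, and many of their genes respond to the pulses of growth hormone seen in males.

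The stretches upstream of 3 genes are shown because they hold short motifs tied to these signals. A RefSeq table of gene starts on the build GRCm38.p6 gave a start for 7 of the 9 genes and none for Mup20 and Socs2. The 250 bases before each start were searched on both strands for TTCNNNGAA, the site bound by STAT5, for TGACGTCA, the cyclic AMP response element, for its shorter form TGACG, which every full element also holds, and for CAAAACA, the core of the insulin response sequence bound by forkhead factors. Capitals mark the matches. On GRCm38.p6 the stretch of Igfbp1 lies at chr11:7197537-7197786 on the plus strand, 2 starts of Igfals at chr17:24877594-24877843 and chr17:24877981-24878230 on the plus strand, and Mup3 at chr4:62087318-62087567 on the minus strand, with each sequence written 5′ to 3′ along its gene.
Igfbp1: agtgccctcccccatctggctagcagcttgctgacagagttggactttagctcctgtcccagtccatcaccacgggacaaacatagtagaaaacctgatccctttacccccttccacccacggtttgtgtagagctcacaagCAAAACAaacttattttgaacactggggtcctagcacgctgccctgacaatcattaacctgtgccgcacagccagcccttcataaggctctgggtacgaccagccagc
Igfals, first start: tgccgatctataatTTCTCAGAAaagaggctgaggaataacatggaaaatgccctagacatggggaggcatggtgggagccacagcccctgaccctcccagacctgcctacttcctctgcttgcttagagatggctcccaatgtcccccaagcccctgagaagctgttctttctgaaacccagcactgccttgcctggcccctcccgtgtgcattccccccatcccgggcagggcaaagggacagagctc
Igfals, second start: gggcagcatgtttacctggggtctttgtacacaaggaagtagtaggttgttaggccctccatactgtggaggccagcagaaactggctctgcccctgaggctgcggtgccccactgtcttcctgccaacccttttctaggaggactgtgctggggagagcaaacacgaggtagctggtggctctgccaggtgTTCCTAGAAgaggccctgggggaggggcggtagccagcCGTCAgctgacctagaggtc
Mup3: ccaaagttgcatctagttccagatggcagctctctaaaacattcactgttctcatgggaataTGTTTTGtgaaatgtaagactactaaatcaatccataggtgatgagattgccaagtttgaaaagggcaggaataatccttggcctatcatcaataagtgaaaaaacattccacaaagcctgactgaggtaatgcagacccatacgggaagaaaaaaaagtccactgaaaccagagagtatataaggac

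In Igfbp1 the insulin response core began at position -108 from the gene start. In Igfals a STAT5 motif began at position -236 from the first start and another at -58 from the second start, where the shorter cyclic AMP motif also stood at -20. In Mup3 the insulin response core lay on the opposite strand at -188. None of the motifs was found before the third start of Igfals or before the listed starts of Ghr, Igf1, Igfbp2 and Igfbp3. Of 32851 promoters of the same length, 7.02% held TTCNNNGAA, 1.55% held TGACGTCA, 17.8% held TGACG and 5.56% held CAAAACA, and the matches are given as a description only.

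The libraries held 30195867 to 45491932 counts. All 8 hepatocyte markers (Alb, Ttr, Apoa1, Apob, Fgb, Trf, Hnf4a and Cps1) were detected in every library. Their summed level, in FPKM, which scales counts by gene length and library depth, was 14600 to 15900 in DMSO, 15300 in both 5C libraries, 8710 to 10100 in 5C-G, 8880 to 10200 in 5C-C, 5910 to 6770 in 5C-E, 22200 to 27200 in 5C-F and 11200 in 5C-S. Of 10 macrophage markers, all were in the table, and the Kupffer cell markers Clec4f and Timd4 were at 0 in at least 1 library. Their summed FPKM was 4970 to 5020 in DMSO, 510 to 599 in 5C, 5050 to 7180 in 5C-G, 1010 to 1710 in 5C-C, 713 to 850 in 5C-E, 1640 to 1990 in 5C-F and 618 in 5C-S. The 8 stellate cell and fibroblast markers summed to 784 to 1720 over the libraries, the 5 cholangiocyte markers to 1460 to 3420, and the 5 of 6 endothelial markers in the table to 3.35 to 23.4, with Pecam1, Cdh5 and Tek at 0 in at least 1 library. In bulk RNA, fewer cells of a type and less RNA per cell cannot be told apart, and the part of cell composition in the results that follow was not tested.

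All 9 genes passed the filter on low counts. A gene was called where the edgeR adjusted p was below 0.05 and the log2 fold change was beyond 1. Of the 9 genes, 2 were called in 5C against DMSO, where 4.55% of all 19884 tested genes were called, and 4 were called in 5C-G against 5C, where 13.1% of all genes were. In 5C-C against 5C, 5 were called beside 20.2% of all genes, in 5C-E against 5C 3 were called beside 1.96%, and in 5C-F against 5C 2 were called beside 4.84%. Both genes called in 5C against DMSO were higher, beside 1.66% of all genes called higher and 2.89% called lower. In 5C-G 1 was higher and 3 were lower, beside 7.47% and 5.64%, and in 5C-C 2 were higher and 3 lower, beside 9.65% and 10.5%. All 3 in 5C-E were lower, beside 0.654% of all genes called higher and 1.31% called lower, and both in 5C-F were higher, beside 2.69% and 2.15%. Because the genes were chosen with these values known, nothing is read from the counts. The FPKM of both groups did not overlap for 7, 6, 9, 6 and 8 of the 9 genes in the same order of comparisons, beside 59.3%, 62.8%, 66.2%, 54.6% and 55.9% of all tested genes. The median log2 fold change of the 9 genes was 0.25, -0.25, -0.50, -0.26 and 0.48, beside medians of all tested genes between -0.01 and 0.01. The last 4 comparisons share the 5C libraries.

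**Figure D1:**
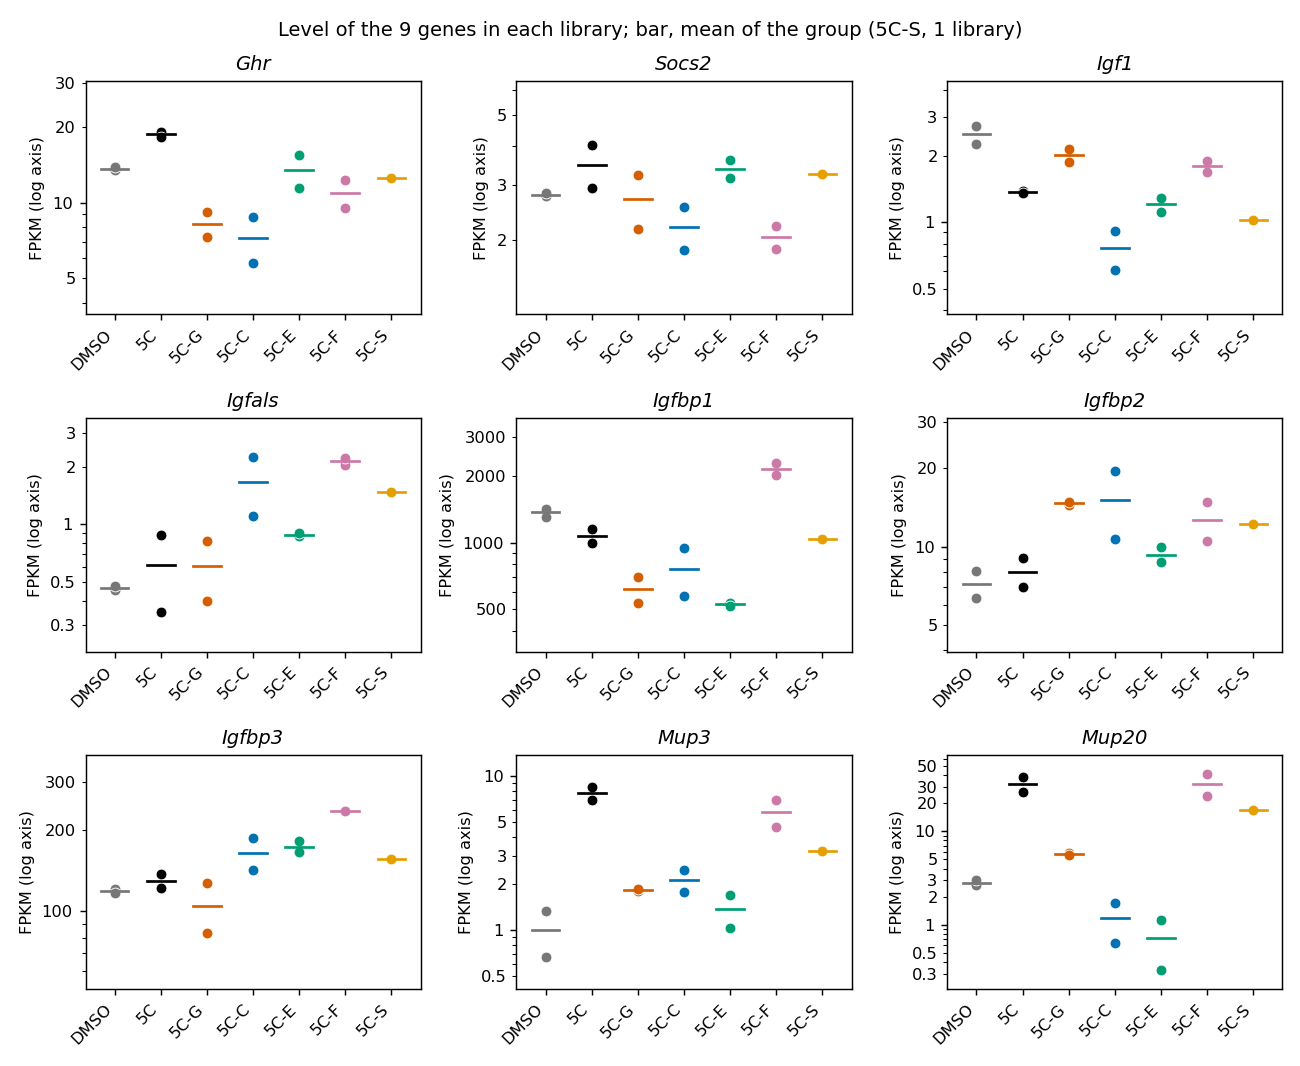
Level of each of the 9 genes in every library, in FPKM on a log axis, with 1 panel per gene and 1 column per group. Points are libraries and horizontal bars are group means; Mup20 spans 0.330 to 40.9 FPKM and Mup3 0.665 to 8.51 FPKM, while Socs2 stays between 1.86 and 4.02 FPKM.

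Mup20, which encodes darcin, the male urinary protein that acts as a pheromone, varied most among the 9 genes, with a 44.8-fold range of group means. Its FPKM was 2.65 and 3.01 in the DMSO libraries, 26.4 and 38.1 in 5C, 5.83 and 5.57 in 5C-G, 1.71 and 0.638 in 5C-C, 1.12 and 0.330 in 5C-E, 40.9 and 24.2 in 5C-F and 17.0 in 5C-S. The 5C and 5C-F libraries overlapped and lay above all others, and 5C-C and 5C-E lay below DMSO. The level was 32.2 ± 8.33 FPKM in 5C and 2.83 ± 0.252 FPKM in DMSO (SD, n = 2 each), which the fit gave as a log2 fold change of 3.44 ± 0.44 (SE). Against 5C the log2 fold change of Mup20 was -5.52 ± 0.50 in 5C-E, -4.67 ± 0.48 in 5C-C and -2.37 ± 0.41 in 5C-G. It was 0.12 ± 0.39 in 5C-F, where the values overlapped. Without the library 5C-E A the value in 5C-E was -6.64 and without 5C-E B it was -4.91, and without 5C-C A the value in 5C-C was -5.45, all still called. The lowest library, 5C-E B, rested on a count of 10, and the highest, 5C-F A, on 1468.

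Mup3 encodes another urinary protein of the same family and was, like Mup20, highest in the 5C and 5C-F libraries. Its FPKM was below that of Mup20 in every library except those of 5C-C and 5C-E, where it was above. Its FPKM was 0.665 and 1.32 in DMSO, 8.51 and 7.01 in 5C, 1.80 and 1.85 in 5C-G, 2.44 and 1.77 in 5C-C, 1.70 and 1.03 in 5C-E, 6.99 and 4.66 in 5C-F and 3.24 in 5C-S. Both 5C libraries lay above every other library, and DMSO overlapped 5C-E only. The log2 fold change of Mup3 was 2.89 ± 0.45 in 5C against DMSO. Against 5C it was -2.57 ± 0.44 in 5C-E, -1.95 ± 0.42 in 5C-G and -1.72 ± 0.42 in 5C-C, and it was -0.31 ± 0.40 in 5C-F. The call in 5C-E was lost without the library 5C-E B, where the value was -2.26. Where Mup20 in 5C-C and 5C-E was below its DMSO level, the mean of Mup3 was 2.11 and 1.36 FPKM there beside 0.994 FPKM in DMSO, and only the 5C-E libraries overlapped those of DMSO. Across the 13 libraries Pearson's r of log2 CPM, the depth-scaled count, was 0.82 between Mup3 and Mup20, a description over libraries that share groups and controls.

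Reads may be shared among Mup copies. On GRCm39 the GENCODE annotation places 22 protein-coding Mup genes at chr4:59956804-62069175, of which Mup3, Mup9, Mup20 and Mup21 were in the count table, and the other copies were not analysed here. Mup9 had at most 4 counts and Mup21 at most 10 counts in a library. Windows of the longest transcript were compared, by exact match, with the transcripts of 72 other genes in the Mup region. Genes outside this region were not searched. Of the 150-base windows of Mup20, 27.4% also occurred in the gene model Gm70526. Of its 50-base windows, 49.6% occurred in at least 1 of the 72 genes. Of the Mup3 windows, 0% of those of 150 bases and 8.36% of those of 50 bases occurred in any of them. The GENCODE span of Mup3 (chr4:61947447-62005620, minus strand) also contains Mup20 (chr4:61968464-61972395, minus strand). The annotation used for counting is not given, so how reads in the shared span were assigned is not known. The lengths implied by counts and FPKM were 1070 bases for Mup3 and 930 bases for Mup20. The GENCODE transcripts used for the windows had 1796 and 1673 bases. With all 4 Mup genes of the table summed into 1 feature, the log2 fold change was 3.24 ± 0.36 in 5C against DMSO, and against 5C it was -4.19 ± 0.38 in 5C-E, -3.34 ± 0.36 in 5C-C, -2.27 ± 0.34 in 5C-G and 0.04 ± 0.32 in 5C-F. The summed feature kept the direction of both Mup genes in all comparisons but 5C-F. There Mup3 alone was on the other side of 0 by less than its SE. Mup9 and Mup21 added few counts, so the sum is nearly that of Mup3 and Mup20 and cannot show whether reads were shared. The pseudogene Mup-ps19 was also highest in 5C and 5C-F, with 48 and 33 counts in DMSO, 196 and 120 in 5C, 245 and 133 in 5C-F and 54 in 5C-S, beside 6 to 35 counts in the other libraries.

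**Figure D2:**
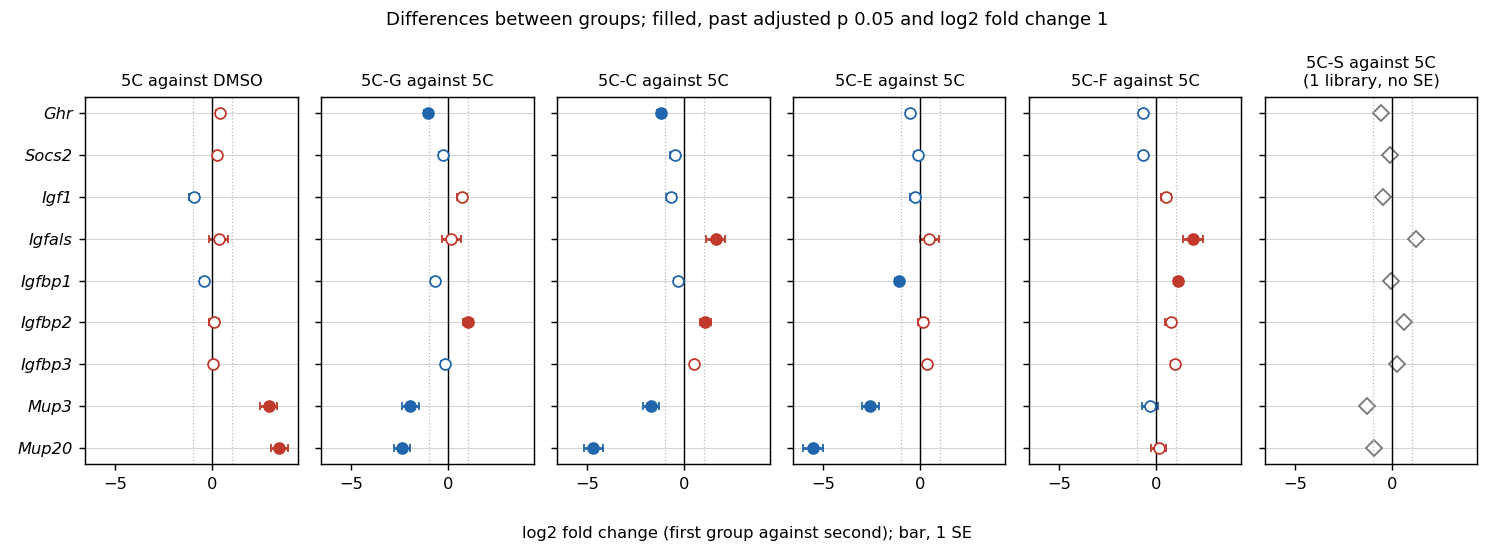
Log2 fold change of each of the 9 genes in the 5 comparisons, with bars of 1 SE, and the log2 difference of the single 5C-S library from 5C without an error. Filled points passed the adjusted p of 0.05 and the log2 fold change of 1 (dotted lines); the Mup genes are far to the right in 5C against DMSO and far to the left in 5C-G, 5C-C and 5C-E, but near 0 in 5C-F.

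Ghr encodes the growth hormone receptor and lies at chr15:3347235-3613024 on the minus strand of GRCm39, the build of all gene positions given here other than the upstream stretches. Its FPKM was 13.6 and 13.9 in DMSO, 19.2 and 18.4 in 5C, 9.19 and 7.33 in 5C-G, 8.77 and 5.73 in 5C-C, 15.5 and 11.5 in 5C-E, 12.3 and 9.51 in 5C-F and 12.6 in 5C-S. Both 5C libraries were the highest of all, and every group that lacked a compound lay below them. On the log2 scale 5C differed from DMSO by 0.38 ± 0.21 (SE). Against 5C the log2 fold change of Ghr was -1.21 ± 0.21 in 5C-C, -1.06 ± 0.21 in 5C-G, -0.68 ± 0.21 in 5C-F and -0.55 ± 0.21 in 5C-E. With an offset per library for the GC content and length of each gene, the values in 5C-G and 5C-C were -0.44 and -0.35 and no longer called. Without the library 5C-G B the first was -0.99, and without 5C-C B the second was -0.96, neither beyond 1.

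Socs2 encodes a suppressor of cytokine signalling that is switched on by growth hormone and dampens its receptor (chr10:95219523-95253929, minus strand). It varied least among the 9 genes in its group means, with 2.76 and 2.82 FPKM in DMSO, 2.94 and 4.02 in 5C, 3.23 and 2.17 in 5C-G, 2.56 and 1.86 in 5C-C, 3.15 and 3.61 in 5C-E, 1.87 and 2.22 in 5C-F and 3.24 in 5C-S. The 5C-F and 5C-C libraries were the lowest on average and overlapped each other. Between 5C and DMSO the log2 fold change was 0.25 ± 0.22. Against 5C it was -0.67 ± 0.22 in 5C-F, -0.50 ± 0.22 in 5C-C, -0.25 ± 0.22 in 5C-G and -0.11 ± 0.22 in 5C-E. With the GC and length offset the value turned to 0.16 in 5C-G and 0.13 in 5C-C.

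Igf1 encodes the circulating growth factor of the axis (chr10:87693642-87772904, plus strand). Its FPKM was 2.28 and 2.74 in DMSO, 1.39 and 1.37 in 5C, 1.87 and 2.16 in 5C-G, 0.611 and 0.915 in 5C-C, 1.12 and 1.30 in 5C-E, 1.91 and 1.69 in 5C-F and 1.02 in 5C-S. The gene was thus highest in DMSO, which held the lowest Mup3, and lowest in 5C-C. Igf1 in 5C differed from DMSO by a log2 fold change of -0.94 ± 0.25. Against 5C it was 0.69 ± 0.25 in 5C-G and 0.48 ± 0.25 in 5C-F, and -0.68 ± 0.25 in 5C-C and -0.26 ± 0.25 in 5C-E. With the GC and length offset the values were -1.10 in 5C against DMSO, 1.53 in 5C-G and 1.05 in 5C-F, all 3 then called, and the value in 5C-C turned from -0.68 to 0.48. Macrophages also make IGF1, and across the 13 libraries Pearson's r of Igf1 with the summed macrophage markers was 0.76, beside 0.63 with the cholangiocyte, 0.45 with the hepatocyte, -0.41 with the endothelial and -0.66 with the stellate cell and fibroblast markers. The part of macrophage RNA, or of RNA from the other cell types, in the level of Igf1 was not tested.

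Igfals encodes the acid-labile subunit (chr17:25084971-25100984, plus strand) and was the least abundant of the genes encoding IGF carriers, with 34 to 322 counts per library. Its FPKM was 0.457 and 0.476 in DMSO, 0.884 and 0.349 in 5C, 0.402 and 0.821 in 5C-G, 1.11 and 2.23 in 5C-C, 0.867 and 0.899 in 5C-E, 2.04 and 2.22 in 5C-F and 1.47 in 5C-S. The 5C-F and 5C-C libraries and the 5C-S library lay above both 5C libraries, which differed widely from each other. The log2 fold change against 5C was 1.89 ± 0.49 in 5C-F and 1.62 ± 0.49 in 5C-C, and it was 0.16 ± 0.49 in 5C-G and 0.45 ± 0.49 in 5C-E. In 5C against DMSO it was 0.32 ± 0.50. Without the library 5C B, the lower of the pair, the values were 1.39 in 5C-F and 1.13 in 5C-C, neither called, and without 5C A they were 2.68 and 2.41. The call in 5C-C was also lost without 5C-C B (0.98) and with the GC and length offset (0.92), and the call in 5C-F without either 5C-F library (1.91 and 1.87). Levels of Igfals and Socs2, both targets of growth hormone, ran in opposite directions, with Pearson's r of -0.81 over the 13 libraries.

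Igfbp1 encodes the binding protein that responds to fasting and insulin (chr11:7147651-7152546, plus strand), and it was by far the most abundant of the 9 genes. Its FPKM was 1425 and 1311 in DMSO, 1157 and 992 in 5C, 703 and 533 in 5C-G, 941 and 576 in 5C-C, 536 and 517 in 5C-E, 2274 and 2016 in 5C-F and 1040 in 5C-S. The libraries without forskolin were the highest, and those of 5C-G, 5C-C and 5C-E lay below every 5C library. The level was 2145 ± 182 FPKM in 5C-F and 1075 ± 117 FPKM in 5C (SD, n = 2 each). The log2 fold change against 5C was 1.10 ± 0.19 in 5C-F, -1.10 ± 0.19 in 5C-E, -0.67 ± 0.19 in 5C-G and -0.34 ± 0.19 in 5C-C, and it was -0.42 ± 0.19 in 5C against DMSO. Both calls sat near the threshold of 1. The value in 5C-F was 0.97 without 5C-F A, 1.02 and not called without 5C B and 0.99 with the GC and length offset. The value in 5C-E was -1.0 without 5C A and -1.07 without 5C-E B, neither called. The level of Igfbp1 moved with the summed hepatocyte markers, with Pearson's r of 0.96 over the 13 libraries, a sum made up mostly of Alb and Trf. Its r was 0.78 with the cholangiocyte, 0.12 with the macrophage, -0.36 with the endothelial and -0.87 with the stellate cell and fibroblast markers. In 5C-G all of the hepatocyte markers but Apoa1 lay below both 5C libraries, and Apoa1 was 2009 and 2952 FPKM beside 907 and 880 FPKM in 5C. In 5C-C Alb, Ttr, Apob, Hnf4a and Cps1 lay below 5C, Trf overlapped it, and Apoa1 and Fgb lay above, with Fgb at 415 and 323 FPKM beside 291 and 250 FPKM. Per 1000 FPKM of summed hepatocyte markers, Igfbp1 was 89.5 ± 0.148 in DMSO, 70.2 ± 7.78 in 5C, 87.2 ± 5.06 in 5C-F, 83.3 ± 5.78 in 5C-E, 78.6 ± 19.4 in 5C-C and 66.7 ± 19.8 in 5C-G (SD, n = 2 each), and it was 92.7 in the 5C-S library. These ratios spanned 1.39-fold over the group means, beside 4.07-fold for the FPKM itself. The same ratio for Mup20, whose r with the hepatocyte sum was 0.79, spanned 19.0-fold. The ratio was added after the values were seen, and the part of hepatocyte RNA in these levels was not tested.

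**Figure D3:**
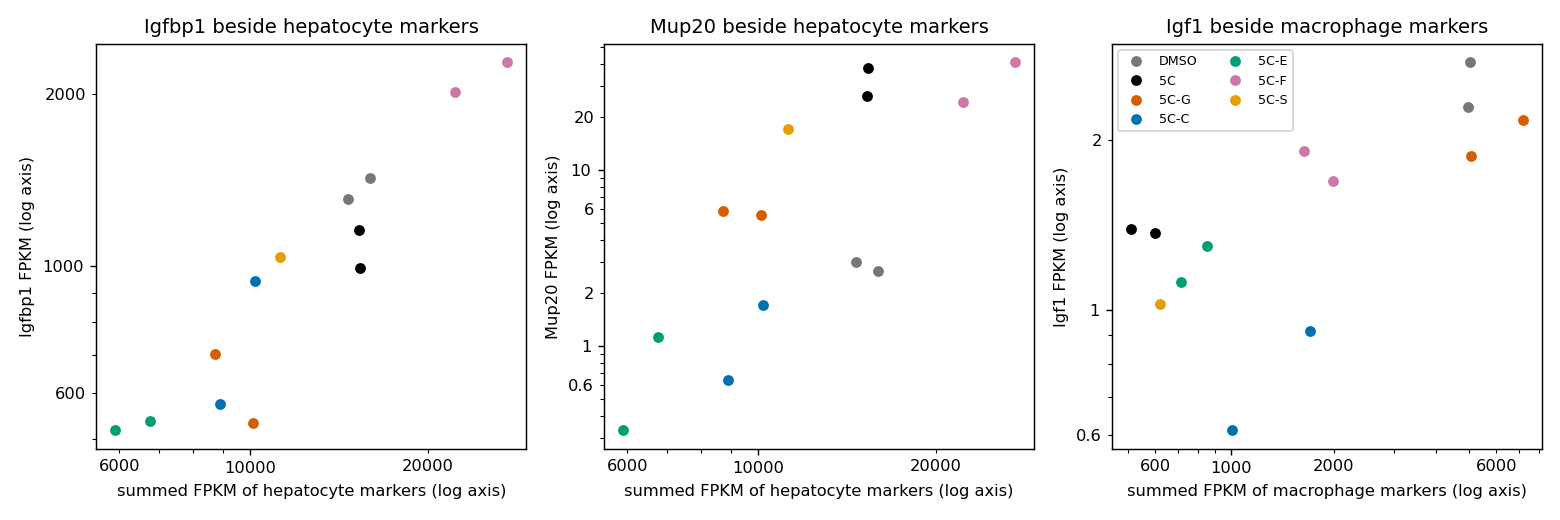
Igfbp1 and Mup20 against the summed hepatocyte markers, and Igf1 against the summed macrophage markers, 1 point per library, in FPKM on log axes, coloured by group. Igfbp1 is higher where the hepatocyte sum is higher (r of 0.96), while the DMSO libraries hold a high hepatocyte sum with 2.65 and 3.01 FPKM of Mup20.

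Igfbp3, whose product carries most IGF1 in blood, lies beside Igfbp1 on the opposite strand (chr11:7156086-7164179, minus strand). Its FPKM was 120 and 116 in DMSO, 137 and 122 in 5C, 127 and 82.9 in 5C-G, 186 and 142 in 5C-C, 165 and 181 in 5C-E, 234 and 235 in 5C-F and 156 in 5C-S. The 5C-F libraries were the highest, and the 5C-C, 5C-E and 5C-S libraries lay above both 5C libraries. Its log2 fold change against 5C was 0.96 ± 0.18 in 5C-F and 0.50 ± 0.18 in 5C-C, while 5C-E stood at 0.35 ± 0.18 and 5C-G at -0.18 ± 0.18, and in 5C against DMSO it was 0.05 ± 0.18. In liver, Igfbp3 is known mostly from non-parenchymal cells such as Kupffer and endothelial cells. Across the 13 libraries its r was -0.34 with the summed macrophage markers and -0.04 with the endothelial markers, whose sum is almost all Kdr. It was -0.26 with the stellate cell and fibroblast, 0.33 with the hepatocyte and 0.35 with the cholangiocyte markers. The part of these cells in its level was not tested.

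Igfbp2 encodes a further IGF carrier made by hepatocytes (chr1:72863606-72891634, plus strand). Its FPKM was 8.09 and 6.34 in DMSO, 7.03 and 9.02 in 5C, 14.5 and 14.9 in 5C-G, 10.7 and 19.4 in 5C-C, 8.71 and 9.95 in 5C-E, 10.5 and 14.8 in 5C-F and 12.2 in 5C-S. The 5C-G, 5C-C, 5C-F and 5C-S libraries all lay above the 5C and DMSO libraries, which overlapped. Set against 5C, the log2 fold change was 1.08 ± 0.28 in 5C-C and 1.01 ± 0.28 in 5C-G, and it was 0.75 ± 0.28 in 5C-F and 0.14 ± 0.28 in 5C-E, and in 5C against DMSO it was 0.08 ± 0.28. With the GC and length offset the values were 0.40 in 5C-G and 0.15 in 5C-C, and neither was called. Without 5C-C B the value in 5C-C was 0.55, without 5C A it was 0.90, and in 5C-G it was 0.82 without 5C A and 0.89 without 5C-G B, none of them called. The call in 5C-G held in 3 of 11 alternatives and that in 5C-C in 5 of 11. Igfbp2 and Ghr ran in opposite directions over the 13 libraries, with r of -0.89, and their transcripts lie on either side of the base composition of most genes.

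**Figure D4:**
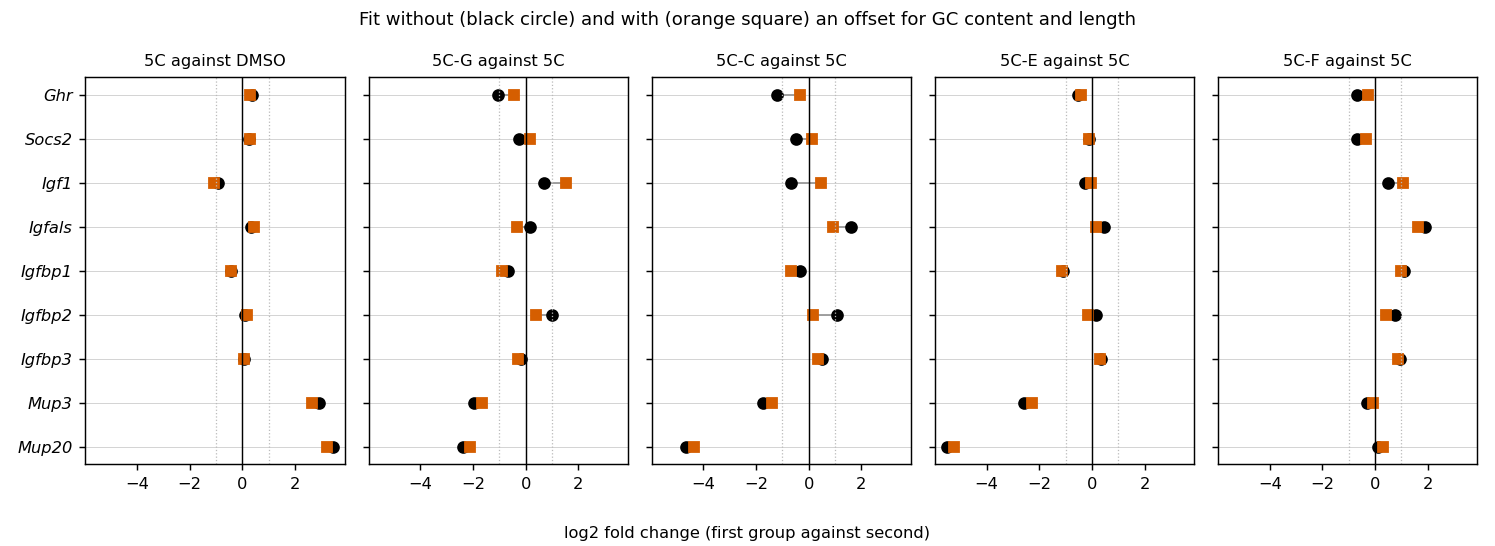
Log2 fold change of the 9 genes in each comparison, fitted without (black circles) and with (orange squares) an offset per library for GC content and length. The Mup genes keep values beyond 1 in the first 4 comparisons, while Ghr and Igfbp2 move towards 0 in 5C-G and 5C-C and Igf1 crosses 0 in 5C-C.

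The GC content of the annotated transcript was 39.5% for Mup3, 40.0% for Mup20, 42.4% for Ghr and 38.7% for Igf1. Of the genes in the count table with a value, 6.1%, 7.3%, 15.5% and 4.1% had a lower GC content in the same order. At the other end stood Igfals with 58.9% and Igfbp2 with 61.2%, above 95.3% and 98.1% of genes, while Socs2 (46.8%), Igfbp1 (50.9%) and Igfbp3 (51.1%) lay in between. Of the 16 calls of the 9 genes, 10 were kept with the offset. They were all 8 calls of the Mup genes, that of Igfals in 5C-F and that of Igfbp1 in 5C-E. Scaling by total counts alone moved the median of all genes by -0.13 in 5C-G and -0.15 in 5C-C and by less than 0.1 in the other comparisons, so all fold changes here are relative to a median near 0.

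In the 5C-S library, which has no replicate and no test, Mup3 was 1.28 and Mup20 0.94 lower than the 5C mean on the log2 scale. Igfals differed by 1.24 and Igfbp2 by 0.58 in the other direction, while Ghr differed by -0.59, Igf1 by -0.45 and Igfbp3 by 0.26. Socs2 (-0.12) and Igfbp1 (-0.06) lay within the range of the pair of 5C libraries. Differences beyond 1 in this library were found for 18.9% of all tested genes.

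The other genes of the axis came from lists of growth hormone signalling, the IGF system, and genes known as male-biased or female-biased in mouse liver. Of 55 listed genes, 53 were in the count table and 47 passed the filter. In 5C against DMSO, 5 of the 47 were called, 3 higher and 2 lower, beside 4.55% of all tested genes. Against 5C, 15 were called in 5C-G (4 higher, 11 lower) beside 13.1% of all genes, 11 in 5C-C (3 higher, 8 lower) beside 20.2%, 4 in 5C-E (1 higher, 3 lower) beside 1.96% and 7 in 5C-F (3 higher, 4 lower) beside 4.84%. The counts of each list below are to be read against the same shares of all genes, and no difference between a list and all genes was tested.

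Of these 42 calls of 22 genes, 14 held under each of the 11 alternatives tried for them and 32 held with the GC and length offset. Single libraries that decide a call are named with the value found without them.

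Of the 14 genes of growth hormone signalling, 3 each were called in 5C-G and 5C-C, beside 13.1% and 20.2% of all genes, and 1 each in 5C-E, in 5C-F and in 5C against DMSO, beside 1.96%, 4.84% and 4.55%. Ptpn6, a phosphatase of cytokine receptors that is abundant in blood cells, fell by 1.86 ± 0.21 on the log2 scale in 5C against DMSO (edgeR adjusted p = 1.03e-05) and rose by 1.70 ± 0.21 in 5C-G against 5C (edgeR adjusted p = 2.42e-05). In both comparisons it moved in the direction of the macrophage markers, and their part in its level was not tested. Socs3, an inhibitor induced by inflammatory cytokines, rose by 1.71 ± 0.27 in 5C-C, from 19.5 ± 0.70 to 56.5 ± 5.79 FPKM (edgeR adjusted p = 0.000183). Its rise of 1.16 ± 0.26 in 5C-E (edgeR adjusted p = 0.0224) was not called without 5C A (1.11), 5C B (1.25) or 5C-E B (0.91), nor with the offset (0.87). Socs1, an inhibitor of JAK kinases, rose by 2.04 ± 0.47 in 5C-G and by 1.83 ± 0.47 in 5C-C (edgeR adjusted p = 0.00468 and 0.00594), and neither was called without 5C A (1.59 and 1.38), nor the second with the offset (1.10). Without 5C B they were 2.63 and 2.49, both called. Irs1, the adaptor of the insulin and IGF1 receptors, fell by 2.62 ± 0.48 in 5C-G and fell by 3.84 ± 0.52 in 5C-C (edgeR adjusted p = 0.000888 and 6.55e-05). Its level was 0.970 ± 0.104 FPKM in 5C, 0.149 ± 0.121 FPKM in 5C-G and 0.0620 ± 0.0300 FPKM in 5C-C. The value in 5C-G was -3.72 without 5C-G A and -2.0 without 5C-G B, both called. The fall of 1.70 ± 0.45 in 5C-F (edgeR adjusted p = 0.0261) was lost without any 1 of the 4 libraries compared, at -1.96 to -1.47. Jak2 and Stat5b, which carry the growth hormone signal, were called in none of the 5 comparisons. Jak2 was 15.45 ± 0.16 FPKM in 5C, 9.32 ± 1.64 FPKM in 5C-G and 9.40 ± 1.98 FPKM in 5C-C. Its log2 differences of -0.60 and -0.56 did not reach the fold threshold (edgeR adjusted p = 0.0208 and 0.0229). Stat5b was 10.3 ± 0.028 FPKM in 5C and 4.85 ± 0.18 FPKM in 5C-C, and its log2 difference of -0.93 did not reach the fold threshold (edgeR adjusted p = 0.00116). Cish, a STAT5 target like Socs2, had means of 0.111 to 0.313 FPKM in the groups of 2 libraries and was not called.

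Of the 16 genes of the IGF system, 2 were called in 5C against DMSO, beside 4.55% of all genes. Left-out compounds gave 8 in 5C-G beside 13.1%, 3 in 5C-F beside 4.84%, 5 in 5C-C beside 20.2% and 1 in 5C-E beside 1.96%. Igfbp5, a carrier that also binds extracellular matrix, fell by 3.30 ± 0.30 in 5C-G and by 2.32 ± 0.28 in 5C-F (edgeR adjusted p = 1.12e-06 and 0.000227). Its FPKM was 8.01 and 7.90 in 5C, 0.709 and 0.752 in 5C-G and 1.26 and 1.72 in 5C-F, so the groups were far apart. Pappa, a protease that releases IGF from its carriers, fell by 1.86 ± 0.28 in 5C-G and by 2.14 ± 0.28 in 5C-F (edgeR adjusted p = 0.000167 and 0.000412), from 3.89 ± 0.0454 FPKM in 5C. Its rise of 1.27 ± 0.27 in 5C against DMSO (edgeR adjusted p = 0.00691) was not called without DMSO A (1.20), DMSO B (1.35) or 5C B (1.26). Stc1, an inhibitor of PAPPA, fell by 1.82 ± 0.25 in 5C-G and by 1.16 ± 0.24 in 5C-C (edgeR adjusted p = 7.9e-05 and 0.00144), the latter not called with the offset (-0.66). In 5C-E it fell by 1.34 ± 0.25 (edgeR adjusted p = 0.00445), which was lost without 5C A (-1.23) or 5C-E B (-1.24). Igfbp6, a carrier that prefers IGF2, rose by 1.43 ± 0.22 in 5C-G (edgeR adjusted p = 0.000205), and the value was 0.77 and not called with the offset. Igf2, the ligand of fetal life, had 117 and 175 counts in 5C and 2 counts in each 5C-G library (edgeR adjusted p = 0.000286). In 5C against DMSO, Igf2 rose by 2.49 ± 0.72 (edgeR adjusted p = 0.0483), a call lost without DMSO B (1.70), 5C A (2.81) or 5C B (2.07), with a value of 4.50 without DMSO A.

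Receptors and adaptors of the IGF system were among the genes called in 5C-G and 5C-C. Insr, the insulin receptor, fell by 1.22 ± 0.19 in 5C-G and by 1.01 ± 0.18 in 5C-C (edgeR adjusted p = 0.000203 and 0.000519), the latter not called without 5C A (-0.94) or 5C-C B (-0.90). Igf1r, the IGF1 receptor, fell by 1.08 ± 0.19 in 5C-C (edgeR adjusted p = 0.000373), a value of -0.97 and not called without 5C-C B. With the GC and length offset these 3 values were -0.70, -0.22 and -0.53, and none was called, as for Ghr in the same groups. Irs2, the adaptor that works beside IRS1, fell by 1.33 ± 0.21 in 5C-C (edgeR adjusted p = 0.000217), and this call held under every alternative. Grb10, an adaptor that inhibits both receptors, fell by 1.03 ± 0.18 in 5C-G and by 1.14 ± 0.18 in 5C-F (edgeR adjusted p = 0.00065 and 0.0012), with offset values of -0.79 and -0.92 that were not called. Without 5C-G B the value of Grb10 in 5C-G was -0.78 and not called. Pappa2, a relative of PAPPA, had 2 counts in each 5C library, 13 and 33 in 5C-G and 28 and 38 in 5C-C. Its calls (edgeR adjusted p = 0.046 and 0.0205) were lost without any 1 of the libraries compared, except for 5C-C without 5C-C A.

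Growth hormone sets the sex bias of many liver genes, and Mup20 and Mup3 are themselves male-biased. Of 12 male-biased genes other than these, 11 were tested, and 2 each were called in 5C-G and 5C-F, beside 13.1% and 4.84% of all genes, and 1 each in 5C against DMSO, in 5C-E and in 5C-C, beside 4.55%, 1.96% and 20.2%. Cyp7b1, an oxysterol hydroxylase, rose by 1.64 ± 0.29 in 5C against DMSO, from 1.53 ± 0.12 to 5.04 ± 0.52 FPKM (edgeR adjusted p = 0.00124). It fell by 1.08 ± 0.28 in 5C-G (edgeR adjusted p = 0.00991), a call lost without 5C A (-0.99) or 5C-G B (-0.96) and with the offset (-0.755). Cyp2d9, a member of the cytochrome P450 family, fell by 1.78 ± 0.20 in 5C-C and by 1.82 ± 0.20 in 5C-E (edgeR adjusted p = 1.78e-05 and 4.6e-05), the groups in which Mup20 was also lowest. Serpina1e, a protease inhibitor, rose by 1.62 ± 0.27 in 5C-F (edgeR adjusted p = 0.00201). Selenbp2 rose by 1.23 ± 0.31 there (edgeR adjusted p = 0.0182), a call lost without 5C A (1.37), 5C B (1.12) or 5C-F B (1.16). Cyp4a12a, a fatty acid hydroxylase, had 22 and 71 counts in 5C and 0 in both 5C-G libraries. From the mean of the 5C libraries it was at least 15.9-fold lower against a floor of 3 counts per library (edgeR adjusted p = 0.00213). The fitted log2 fold change of -8.66 became -9.31 without 5C A and -7.48 without 5C B.

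Of 13 female-biased genes, 12 were in the table and 6 passed the filter, and 1 or 2 were called in each comparison, beside shares of all genes between 1.96% in 5C-E and 20.2% in 5C-C. Sult2a1, a sulfotransferase of steroids and bile acids, fell by 2.41 ± 0.79 in 5C-G (edgeR adjusted p = 0.0317), a call lost without any 1 of the 4 libraries, at -2.63 to -2.22. Cyp2b9 had 24 and 26 counts in 5C and 0 in both 5C-C libraries, at least 7.87-fold lower against the same floor (edgeR adjusted p = 0.008), and the call was lost without 5C-C B. The Cyp2b, Cyp2d, Cyp4a, Serpina1 and Sult2a families have near-identical copies, so reads may be split among them. Xist, the RNA that coats the inactive X chromosome of female cells, had 1993 to 15126 counts per library. The 4 Y-linked genes of the list had no row in the count table used here, so no level is given for them. The FPKM of Xist was 13 to 14.1 in DMSO, 16.6 to 23.5 in 5C, 15.7 to 23.1 in 5C-E and 20.1 in 5C-S. It was 6.06 to 11.3 in 5C-F, 3.67 to 7.90 in 5C-C and 3.42 to 8.41 in 5C-G. These last 3 groups and DMSO lay below both 5C libraries. The study's methods say that mice of both sexes were used, the labels give no sex for a library, and the part of sex in the levels of these genes was not tested.

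The genes most like each of the 9 were sought among 12933 genes with a mean log2 CPM of at least 1, by Pearson's r over the 13 libraries. For Mup20 they were Cyp4a10, a fatty acid hydroxylase regulated by the receptor PPARA (0.97), and Bhmt2 (0.94) and Bhmt (0.93), which remethylate homocysteine. For Igfbp1 they were the lipid droplet enzymes Hsd17b13 (0.98) and Dgat2 (0.96) and Cyp4v3 (0.94). The nearest genes were Cmbl for Mup3 (0.92), Krt23 for Igfbp3 (0.93), Pkib for Igf1 (0.96), Ppt2 for Igfbp2 (0.97), BC003331 for Ghr (0.98), Anapc5 for Igfals (0.90) and Lysmd4 for Socs2 (0.90). The libraries share groups, depth and base composition, so these values are a description.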

How the data were processed

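Total RNA of cultured dHeps was sequenced by the authors as paired-end reads on a NovaSeq instrument after preparation with the NEBNext Ultra RNA kit and mapped to GRCm39. The submitters' processing notes name Subread, featureCounts and DESeq2. Strand, annotation release and the treatment of multi-mapped reads are not given in the sources used here. The authors deposited raw counts per gene, which are whole numbers, and FPKM, which equal the counts divided by a gene length and the column total within 0.2% for 27140 of 27141 genes. No deposited column was left unused (0 columns).

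Groups came from the labels. Table columns name the group but not the sample, so libraries were called A and B in column order. Counts were fitted with edgeR 4.0.16 (R 4.3.3) by the quasi-likelihood method, with TMM factors, filterByExpr at a minimum count of 10 (19884 genes tested) and group means over all 13 libraries, which left 6 residual degrees of freedom and a common biological coefficient of variation of 0.261. P-values were adjusted over all tested genes by Benjamini-Hochberg. SEs came from the log2 fold change and the F statistic. Log2 CPM used a prior count of 2. Intervals, SEs and the floor of 3 counts cover the spread between libraries or counting error, since reads carry no molecular identifiers. Alternatives were total counts, DESeq2 1.42.0, no filter, only the groups compared, limma 3.58.1 on log2(FPKM + 1) and log2(FPKM + 0.1), an offset for GC content and length (available for 99.5% of tested genes), summed Mup genes, and leaving out each library. The fit was tested on simulated data. The 9 genes, the gene lists and the rules were chosen with earlier results of these data known. All 9 genes are named, as is every listed gene of the axis that was called at least once, except 1 gene that is counted but not reported here, and the 3 nearest genes by correlation for Mup20 and Igfbp1 and the nearest for the others. Ratios to summed markers were added after values were seen.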

Additional observations from a re-analysis of the deposited data

How the results depend on the processing

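Across the alternatives, 482 of 505 log2 fold changes of the 9 genes kept their sign, and so did 184 of 184 for the genes called. The count of the 47 listed genes called in 5C-E against 5C was 4 and became 7 with only the groups compared. With limma on log2(FPKM + 1) the counts became 4 in 5C-F, 2 in 5C-E, 9 in 5C-G and 5 in 5C-C, beside 7, 4, 15 and 11, and with that pseudocount values of genes below about 1 FPKM shrink by construction. With the GC and length offset the count in 5C-C became 7. When each library was left out in turn, the lone library of a group being taken to vary like the others, the counts ran from 1 to 4 in 5C-E, from 4 to 6 in 5C-F, from 7 to 15 in 5C-C, from 10 to 15 in 5C-G and from 4 to 5 in 5C against DMSO. The lowest counts came without 5C-E B, without either 5C library (5C-F) and without 5C-C B. No paired analysis was run, because nothing says that the number of a column ties libraries of different groups. Igfals, with 34 counts in 5C B, and Mup20, with 10 counts in 5C-E B, are limited by depth. The cause of the changes was not tested.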

Other observations

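Per 1000 FPKM of summed hepatocyte markers, a ratio added after the values were seen, the order of groups changed for several of the 9 genes. Igfbp3 was 7.75 ± 0.289 in DMSO and 8.45 ± 0.711 in 5C, and it was 27.5 ± 4.38 in 5C-E and 9.59 ± 1.39 in 5C-F (SD, n = 2 each), where its FPKM had been highest in 5C-F. Socs2 was 0.538 ± 0.102 in 5C-E and 0.0844 ± 0.0220 in 5C-F, a range of 6.37-fold over the group means. Ghr spanned 4.80-fold on this scale, from 0.441 ± 0.0174 in 5C-F to 2.12 ± 0.240 in 5C-E. Mup20 and Mup3 were highest in 5C on this scale, with ranges of 19.0-fold and 7.68-fold, where the FPKM of Mup20 overlapped between 5C-F and 5C, and Mup3 was lowest in DMSO while Mup20 was lowest in 5C-E. Igf1 per 1000 FPKM of summed macrophage markers was 2.50 ± 0.313 in 5C, 0.503 ± 0.0617 in DMSO and 0.336 ± 0.0491 in 5C-G, a range of 7.44-fold over the group means. The other genes of the 9 spanned 13.2-fold to 102-fold on the macrophage scale, and the part of macrophage RNA in these levels was not tested.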
